A study of Mus musculus with 6 samples.

Results

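Two-pore-domain potassium channels (K2P channels) were described here across both lines of a study of mouse cortical pyramidal cells. The genes were chosen by symbol, as 6 members of the Kcnk family (Kcnk1, Kcnk2, Kcnk3, Kcnk4, Kcnk9 and Kcnk10), and the family was picked from these same arrays because Kcnk2 was high in the S100a10 arrays. Every S100a10 against Glt25d2 difference of a K2P gene below is therefore a description and carries no p-value. Of the 6 genes, 5 had a probe set that names that gene alone, with 9 probe sets in all out of 45037 that are not controls. Kcnk9 was not analysed here. The study compared messenger RNA bound to tagged ribosomes, taken from the cortex of untreated mice of S100a10 bacTRAP line ES691 and Glt25d2 bacTRAP line DU9. In a bacTRAP mouse a bacterial artificial chromosome carries a ribosomal protein with a tag under the control regions of the driver gene, so that polysomes of driver-expressing cells can be immunoprecipitated from whole tissue. Both lines had been backcrossed from FVB onto C57BL/6 for 3 to 5 generations, and each gave 3 biological replicates with 1 array each. Each group rests on 1 transgenic line, and the series text states that the S100a10 transgene also marks some cells that are not neurons. The mice's age, and whether animals were pooled, are not given in the sources used here.

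K2P channels are leak channels. Each subunit carries a pair of pore-forming segments, subunits assemble as dimers, and the potassium current that flows at rest pulls the membrane potential of neurons and glia toward the potassium equilibrium. TREK-1 (Kcnk2), TREK-2 (Kcnk10) and TRAAK (Kcnk4) open on membrane stretch and with arachidonic acid, TASK-1 (Kcnk3) and TASK-3 (Kcnk9) close in acid and under receptors that signal through Gq, and TWIK-1 (Kcnk1) passes a weak current and is plentiful in astrocytes. The protein of the driver gene S100a10, also called p11, is known to bind TASK-1 and to affect its transport to the cell surface.

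The start regions of the genes with the largest differences, Kcnk2 and Kcnk4, are shown because transcription of these genes can begin there. RefSeq's table for build GRCm38.p6 held windows, from 250 bases before to 50 after an annotated start, for 4 of the 6 genes and 8 windows in all, 4 of them for Kcnk2. Below are the Kcnk2 window richest in G and C at chr1:189343658-189343957, the Kcnk2 window farthest upstream at chr1:189402224-189402523, and the Kcnk4 window at chr19:6934466-6934765, each on the minus strand and read 5′ to 3′. Capitals mark the GC box GGGCGG on either strand.
Kcnk2 GC-rich window: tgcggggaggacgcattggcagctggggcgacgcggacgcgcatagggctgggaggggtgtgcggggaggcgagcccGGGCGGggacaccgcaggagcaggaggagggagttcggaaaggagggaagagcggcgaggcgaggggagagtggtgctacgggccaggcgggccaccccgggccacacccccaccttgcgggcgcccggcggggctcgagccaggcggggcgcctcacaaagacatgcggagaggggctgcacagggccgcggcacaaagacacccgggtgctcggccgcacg
Kcnk2 upstream window: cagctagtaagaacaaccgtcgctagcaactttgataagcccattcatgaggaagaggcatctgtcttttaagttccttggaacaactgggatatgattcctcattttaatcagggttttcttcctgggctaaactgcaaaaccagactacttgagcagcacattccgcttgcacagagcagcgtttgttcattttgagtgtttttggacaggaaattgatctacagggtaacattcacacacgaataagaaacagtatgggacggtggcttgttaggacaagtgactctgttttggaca
Kcnk4 window: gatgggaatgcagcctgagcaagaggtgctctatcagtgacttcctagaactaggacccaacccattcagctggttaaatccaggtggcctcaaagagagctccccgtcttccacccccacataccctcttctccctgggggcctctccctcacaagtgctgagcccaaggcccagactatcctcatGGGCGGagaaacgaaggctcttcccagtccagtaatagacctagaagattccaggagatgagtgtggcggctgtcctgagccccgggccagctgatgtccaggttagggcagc

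The Kcnk2 windows differed in base composition. The GC-rich window shown had 74.7% G and C and 33 CpG sites, more than 91.4% of the 32851 windows of the table, whose median was 7 CpG sites. Another Kcnk2 window, at chr1:189343304-189343603 and not shown, also had 33 CpG sites, with 68.7% G and C. The window farthest upstream had 43.0% G and C and 6 CpG sites, and the Kcnk4 window had 57.3% and 5. The GC box occurred once in the GC-rich Kcnk2 window shown and once in the Kcnk4 window, and it was in none of the other 3 Kcnk2 windows. Of all windows 35.7% held at least 1. Neither TATAAA, present in 13.6% of all windows on either strand, nor the cyclic AMP response element TGACGTCA, present in 1.79%, was found in any of the 8 windows of these genes. The arrays do not show which start was used.

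Values are the deposited intensities after GCRMA, a background correction and scaling for Affymetrix arrays, and a difference is the log2 level in S100a10 less that in Glt25d2. A probe set was kept for the fit where its mean reached 50 in at least 1 group. The arrays of the groups are scaled differently: the median intensity was 35.5, 35.6 and 35.8 in the S100a10 arrays, against 21.3, 21.1 and 20.4 in the Glt25d2 arrays. The median gene of 11821 differed by 0.56 as deposited and by -0.018 after quantile normalization, so each difference below is to be read against that shift. Of those genes 44.4% were called higher and 4.5% lower in S100a10 cells (limma, adjusted p under 0.05), and after quantile normalization 18.4% were called higher and 18.4% lower. Precision is limited by the number of arrays. In at least 2 of a group's 3 arrays the value was the same for 0.979% of probe sets in S100a10 and 46.8% in Glt25d2, so spreads in Glt25d2 are understated. The labelled pyramidal cells were checked against 8 markers, of which 7 were kept, and their summed intensity was 14060 to 14980 in S100a10 arrays and 14910 to 18590 in Glt25d2 arrays. Of these markers 2 were higher in S100a10 cells, Slc17a7 by 2.12 and Neurod6 by 0.94, and 2 lower, Fezf2 at -1.24 and Bcl11b at -1.66, so the sum does not stand for each of them. Neurod6 did not pass after median centring.

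Of the 6 genes 4 were kept, Kcnk1, Kcnk2, Kcnk3 and Kcnk4. Kcnk4 was kept through its S100a10 mean alone. No call is made for a K2P gene, because the family was picked from this contrast.

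**Figure D1:**
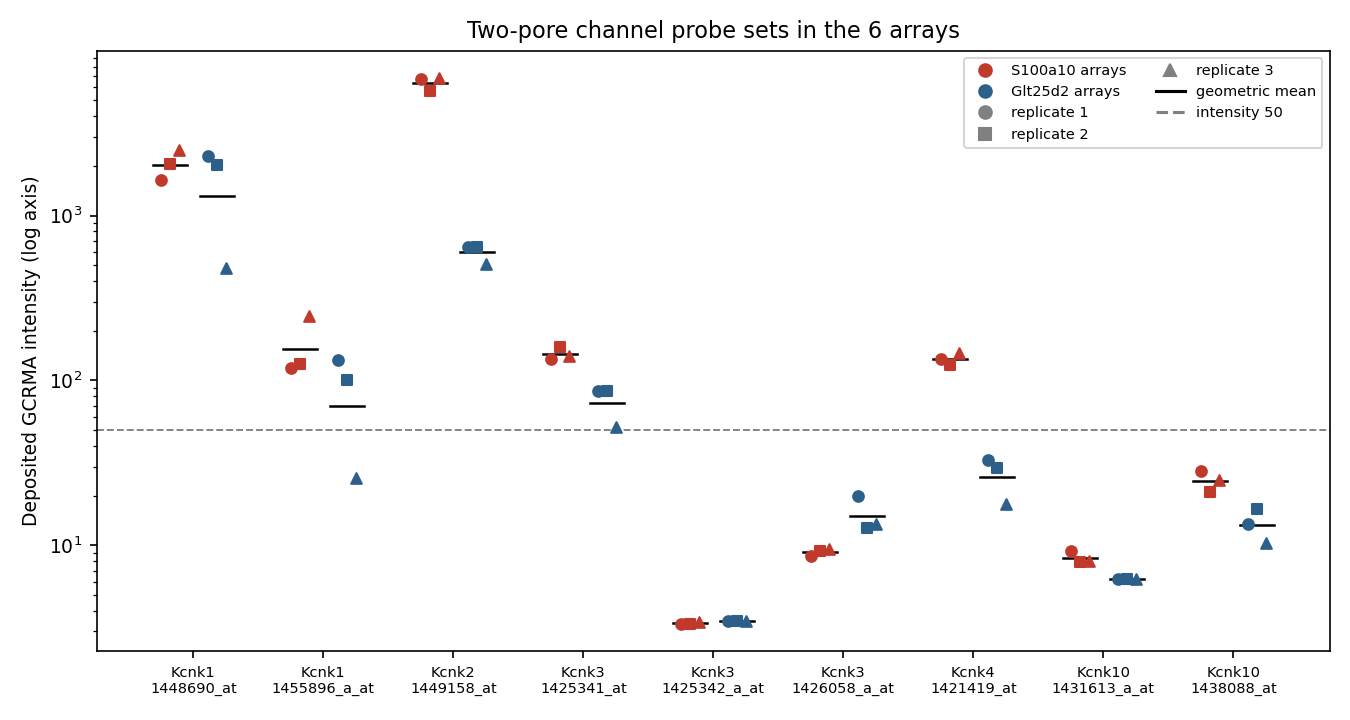
Deposited GCRMA intensity (log axis) of the 9 probe sets of Kcnk1, Kcnk2, Kcnk3, Kcnk4 and Kcnk10 in the 3 S100a10 arrays (left in each pair, red) and the 3 Glt25d2 arrays (right, blue), with symbols for replicates, lines for geometric means and a dashed line at 50. Kcnk2 lies at 5683 to 6820 in S100a10 arrays and at 511.6 to 647.3 in Glt25d2 arrays, and both Kcnk1 probe sets are lowest in Glt25d2 replicate 3.

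Among the channels gated by stretch and lipids, Kcnk2 had the largest difference. Its probe set 1449158_at read 6710, 5683 and 6820 in the S100a10 arrays, against 647.3, 645.9 and 511.6 in the Glt25d2 arrays. The groups lay far apart and each was narrow, with the highest array 1.2 times the lowest in S100a10 and 1.27 times in Glt25d2. The means were 6405 ± 627 in S100a10 and 602 ± 78.0 in Glt25d2 arrays (SD, n = 3 each). The fitted log2 difference was 3.42 (SE 0.14), or 10.7-fold. Relative to the median gene it was 2.86 as deposited and 3.03 after quantile normalization. Of the 11821 genes 347, or 2.94%, had a larger difference toward S100a10. In RNA pulled from many cells, fewer cells of a type and less RNA per cell cannot be told apart.

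Kcnk4, the other measured stretch-gated channel, differed in the same direction from a lower signal. Probe set 1421419_at read 134.7, 123.4 and 146.8 in S100a10 arrays, against 32.9, 29.6 and 17.7 in Glt25d2 arrays. Every Glt25d2 array lay under 50, and the S100a10 mean log2 gave a bound of 2.69-fold against that limit in the deposited scaling. The fitted difference was 2.38 (SE 0.25), 1.53 (SE 0.26) after quantile normalization and 1.27 (SE 0.14) with Glt25d2 replicate 3 left out as well. As a fold, that last value lies below the bound.

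Kcnk10, which encodes TREK-2, lay under 50 in all arrays and gave no fold. Its brighter probe set 1438088_at read 28.35, 21.0 and 24.8 in S100a10 arrays, against 13.5, 16.5 and 10.3 in Glt25d2 arrays. Probe set 1431613_a_at read 7.90 to 9.19 in S100a10 arrays and 6.23 in each Glt25d2 array. Of this subfamily, only Kcnk2 had every array of both groups above 50.

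Kcnk3, the acid-sensitive channel that the S100a10 protein binds, differed less and its difference was not stable to rescaling. Probe set 1425341_at read 134.1, 159.8 and 141.4 in S100a10 arrays, against 86.0, 86.0 and 52.1 in Glt25d2 arrays, of which replicates 1 and 2 were identical. The means were 145 ± 13.3 in S100a10 and 74.7 ± 19.6 in Glt25d2 arrays (SD, n = 3 each). The log2 difference was 0.99 (SE 0.23), or 0.43 relative to the median gene. It was 0.084 (SE 0.18) after quantile normalization, 0.22 after centring each array on its median, and -0.072 (SE 0.14) after quantile normalization without Glt25d2 replicate 3. With 1 array left out it lay between 0.75 and 1.11. The other Kcnk3 probe sets carried little signal. Probe set 1426058_a_at read 8.6, 9.28 and 9.5 in S100a10 arrays, against 19.8, 12.8 and 13.5 in Glt25d2 arrays, the opposite order, and 1425342_a_at averaged 3.36 in S100a10 and 3.48 in Glt25d2 arrays. Every one of these values is under 50.

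The value of Kcnk1, the weak rectifier TWIK-1, turned on 1 Glt25d2 array. Probe set 1448690_at read 1634, 2065 and 2491 in S100a10 arrays, against 2295, 2029 and 478.0 in Glt25d2 arrays. Apart from Glt25d2 replicate 3 the arrays of the groups overlapped. The difference was 0.64 (SE 0.63) with all arrays and -0.086 (SE 0.19) without Glt25d2 replicate 3. The second probe set, 1455896_a_at, read 119.1, 126.5 and 246.3 in S100a10 arrays, against 133.1, 100.2 and 25.6 in Glt25d2 arrays. Over the 6 arrays the log2 values of both Kcnk1 probe sets had a Pearson r of 0.951, and they share the arrays and the low replicate.

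Glt25d2 replicate 3 was the lowest array of its group for every kept probe set of these genes. In that array Kcnk1 was 4.52-fold below the geometric mean of Glt25d2 replicates 1 and 2 by either probe set, Kcnk4 1.76-fold, Kcnk3 1.65-fold and Kcnk2 1.26-fold. Over all 11821 genes the median log2 drop was -0.070, and 8.40% of genes were over 4-fold lower in that array. A larger drop than that of the brighter Kcnk1 probe set was seen in 7.30% of genes, and one larger than that of Kcnk2 in 19.9%. Without this array the Kcnk2 difference was 3.30 (SE 0.13) and that of Kcnk4 2.11 (SE 0.13).

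**Figure D2:**
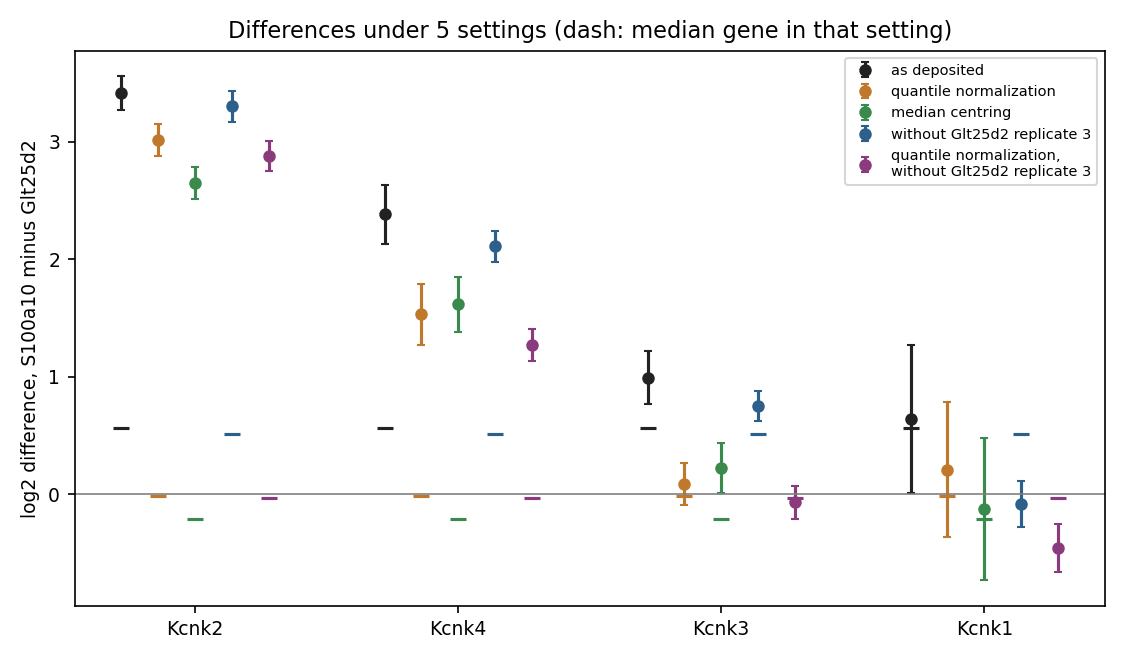
Log2 difference (S100a10 minus Glt25d2) with its SE for Kcnk2, Kcnk4, Kcnk3 and Kcnk1 in 5 settings, by colour, with a dash at the median gene of each setting. Kcnk2 stays between 2.65 and 3.42 and Kcnk4 between 1.27 and 2.38, while Kcnk3 and Kcnk1 each have a negative value in at least 1 setting.

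The rest of the family was mostly near background. Of the 8 other Kcnk genes listed, 7 had a probe set, Kcnk18 was not analysed here, and 3 were kept. Kcnk7, Kcnk13, Kcnk15 and Kcnk16 lay under 50 in every array; Kcnk13 encodes a channel known from microglia and its brighter probe set read 30.3 to 32.9 in S100a10 arrays and 30.1 in Glt25d2 arrays. Kcnk5, the alkaline-activated TASK-2 best known from kidney, read 79.9, 95.2 and 47.35 in S100a10 arrays, against 7.0, 6.79 and 7.0 in Glt25d2 arrays. Its fitted difference of 3.36 (SE 0.27) rests on background-level values in Glt25d2. The S100a10 mean log2 gave a bound of 1.42-fold in the deposited scaling, with 1 S100a10 array also under 50. With values under 50 set to 50, Kcnk5 differed by 0.54, against 0.50 for the median gene. A second Kcnk5 probe set read 8.48 to 9.47 in S100a10 arrays and 6.83 in Glt25d2 arrays.

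Kcnk12, which encodes THIK-2, read 80.8, 36.6 and 75.3 in S100a10 arrays, against 26.8, 17.4 and 7.905 in Glt25d2 arrays. The S100a10 mean log2 gave a bound of 1.21-fold in the deposited scaling. With values under 50 set to 50, Kcnk12 differed by 0.43, against 0.50 for the median gene. Like Kcnk5, it was kept through its S100a10 mean alone, and 1 S100a10 array lay under 50. Kcnk6, which encodes TWIK-2, read 41.3, 63.45 and 81.6 in S100a10 arrays and 40.4 in each Glt25d2 array, with a fitted difference of 0.56 (SE 0.25). Kcnk6 took a negative sign, -0.34, after quantile normalization.

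**Figure D3:**
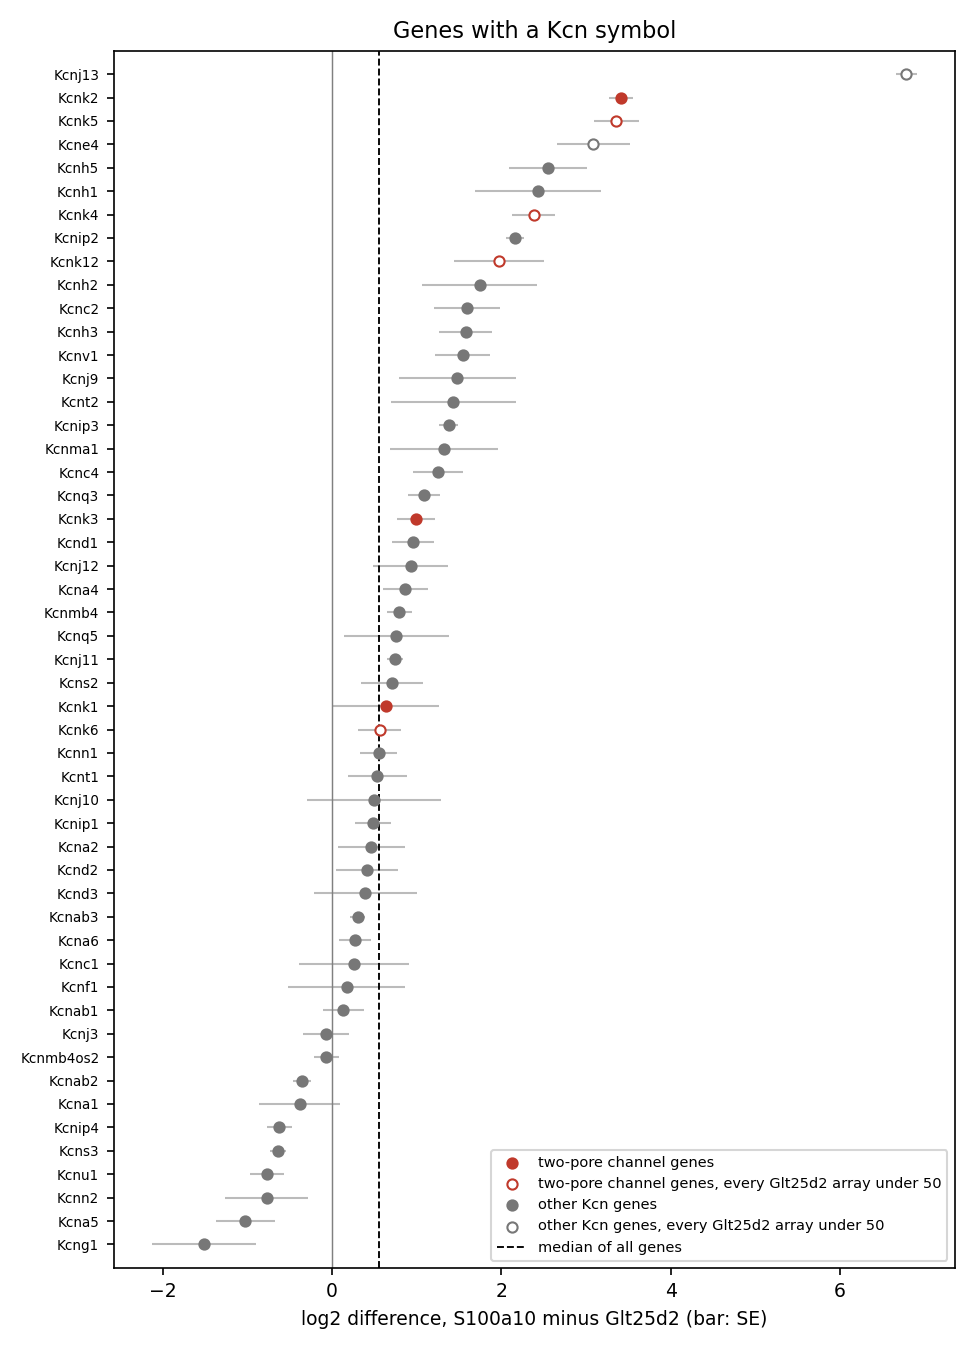
Log2 difference (S100a10 minus Glt25d2) with its SE for the 51 kept genes with a Kcn symbol, K2P genes in red, others in grey, open points where every Glt25d2 array lay under 50, and a dashed line at the median of all genes, 0.56. Kcnk2, at 3.42, is a filled point, while Kcnj13, Kcnk4 and Kcnk5 are open, so the size of their differences rests on values under 50. Kcnk1 and Kcnk6 lie near the dashed line.

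Among the 51 kept genes with a Kcn symbol, a set that holds pore and auxiliary subunits and 1 opposite-strand gene (Kcnmb4os2) and was drawn up after the values were seen, Kcnj13 alone had a larger difference than Kcnk2 as deposited. Kcnj13, an inward rectifier known from choroid plexus, read 842.6, 996.4 and 909.2 in S100a10 arrays, against 8.87, 8.77 and 7.40 in Glt25d2 arrays. With values under 50 set to 50 it differed by 4.19, and Kcnk2 by 3.42. Without Glt25d2 replicate 3, 2 genes of the set lay above Kcnk2, and 1 of them was Kcnk5, at 3.37 against 3.30 for Kcnk2. As deposited 19 genes lay above Kcnk3 and 27 above Kcnk1, and without that array 17 and 37. Kcnk4, Kcnk5, Kcnk6 and Kcnk12, with all Glt25d2 arrays under 50, are given no rank of their own. Genes with all Glt25d2 arrays under 50 are still counted in the ranks of Kcnk1, Kcnk2 and Kcnk3.

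The genes whose 6 values followed those of Kcnk2 most closely were Wnt5a, Ccr9, Pdgfrl, Gpr153 and Vamp5. Likeness was the root mean square distance between log2 values, each gene less its own mean, and it was 0.119 for Wnt5a and 0.130 to 0.134 for the others. Wnt5a, a secreted Wnt ligand, read 150.6, 116.5 and 160.6 in S100a10 arrays, against 13.3, 13.3 and 13.1 in Glt25d2 arrays. In each of these 5 genes every Glt25d2 array lay under 50, unlike Kcnk2. With 3 arrays a group the measure is set almost wholly by the difference between the groups.

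Summed markers of other cell types were higher in S100a10 arrays, as Kcnk2 was, in some lists, though single markers went both ways. The sums use the deposited values, which are scaled differently in the groups, and a single bright gene can set them. The 10 kept of 11 genes of mural cells and fibroblasts summed to 8510 to 11000 in S100a10 arrays and 789.9 to 971.4 in Glt25d2 arrays, with 8 genes higher and 1 lower in S100a10 cells. Among their defining genes, Col1a2, a collagen chain, read 1448, 2373 and 1781 in S100a10 arrays, against 16.7, 16.7 and 17.0 in Glt25d2 arrays. The pericyte marker Rgs5 was the gene lower in S100a10 cells, at -0.88 (SE 0.15, limma adjusted p = 0.0045), and did not pass with the mean of its probe sets. Col1a1 was not kept. Of the genes counted as higher, Pdgfrb, Tagln, Myl9, Col1a2, Col3a1 and Lum had every Glt25d2 array under 50. They were kept through their S100a10 means alone. All 10 astrocyte genes were kept and summed to 23200 to 28750 in S100a10 arrays and 11480 to 20970 in Glt25d2 arrays, with Glt25d2 replicate 3 lowest, as for Kcnk1. Of these 4 were higher in S100a10 cells, led by Gjb6 at 6.26, and 2 lower, Gfap at -1.56 and Aldoc at -1.07. Gjb6 read 4516, 4871 and 5057 in S100a10 arrays, against 75.5, 165.6 and 19.7 in Glt25d2 arrays. Without Gjb6 the astrocyte sums of the groups overlap. The 5 kept of 7 microglial genes summed to 638.8 to 1017 in S100a10 arrays and 319.8 to 629.0 in Glt25d2 arrays, with 1 higher and 0 lower. The gene higher was Tmem119, at 167.3, 272.5 and 173.7 in S100a10 arrays, against 4.17 in each Glt25d2 array. Without Tmem119 the microglial sums of the groups overlap, and after quantile normalization the microglial list median was -0.216. The 8 interneuron genes summed to 17900 to 22910 in S100a10 arrays and 12720 to 18810 in Glt25d2 arrays. Most of that sum was Gad1, which averaged 12870 in S100a10 and 11860 in Glt25d2 arrays and did not pass, while 3 genes were higher in S100a10 cells and 1, Pvalb, was lower, at -2.43. Oligodendrocyte and endothelial sums lay the other way. The 8 kept of 9 oligodendrocyte genes summed to 9723 to 16310 in S100a10 arrays and 17540 to 23990 in Glt25d2 arrays, with 1 gene higher and 1 lower, and the 2 kept of 7 endothelial genes to 117.9 to 126.0 in S100a10 arrays and 159.9 to 562.4 in Glt25d2 arrays, with 0 higher and 1 lower. These counts stand beside the 44.4% of all genes higher and 4.5% lower. Other genes in these and the later counts were also kept through 1 group's mean alone, among them Tmem119, Olig2 and Gfap here and Senp1, Plcb3 and Fxyd1 below. The part of these cell types in the values of Kcnk2, Kcnk4 and Kcnk1 was not tested.

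Proteins reported to bind or move K2P channels showed few large differences. Of 19 listed, 17 were kept; 6 were higher and 1 lower in S100a10 cells, beside 44.4% and 4.5% of all genes, with a list median of 0.15 against 0.56 for all genes. S100a10 itself, the driver of the line, read 15500, 17900 and 13060 in S100a10 arrays, against 3126, 3141 and 3444 in Glt25d2 arrays, a difference of 2.25 (SE 0.14, limma adjusted p = 1.20e-04). Since the transgene carries the driver's control regions and can carry the gene, this value checks the label. S100a10 is nonetheless 1 of the 6 partners counted as higher, so that count includes a gene set by the design. Psd, an exchange factor for Arf6 that acts on TWIK-1 recycling, differed by 1.505 (SE 0.16, limma adjusted p = 8.64e-04), or 0.77 after quantile normalization. It read 372.8, 420.4 and 551.2 in S100a10 arrays and 155.7 in each Glt25d2 array. Its SE and p-value therefore hold no measured spread from Glt25d2. Senp1, a protease, was higher in S100a10 cells by at least 1.78-fold as the values were scaled, and Pld2, a phospholipase that binds TREK channels, differed by 1.12 (SE 0.12). Neither Senp1, at 0.45, nor Pld2, at 0.23, passed after quantile normalization, and as a fold that Senp1 value lies below the bound. Arf6 at 0.55 and Stx8 at 0.36 passed too, both below the median gene. After median centring Arf6 was at -0.22 and did not pass, while Stx8, at -0.41, was called lower in S100a10 cells (limma adjusted p = 0.0245). Arf6 did not pass without Glt25d2 replicate 2, at 0.53, nor Stx8 without Glt25d2 replicate 1, at 0.38, or 2, at 0.35, or S100a10 replicate 1, at 0.32, or 2, at 0.36.

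Map2, a microtubule protein that binds TREK-1, was the partner that fell as deposited, by 0.74 (SE 0.14, limma adjusted p = 0.00646). It fell by 1.09 after quantile normalization. With the mean of the gene's probe sets it was at -0.23 and did not pass (limma adjusted p = 0.209). Its brightest probe set read 2212, 1986 and 1968 in S100a10 arrays, against 2930, 3597 and 3809 in Glt25d2 arrays. The 6 genes of 14-3-3 proteins, which bind TASK channels and help them leave the endoplasmic reticulum, ranged from 0.043 to 0.32 and did not pass (lowest limma adjusted p = 0.0617, for Ywhae). All lay below the median gene, at 0.56. Without Glt25d2 replicate 3, Ywhae passed as higher, at 0.376 (limma adjusted p = 0.0368), beside 0.515 for the median gene. After quantile normalization the 6 genes lay between -0.134 and 0.128 and did not pass. After median centring, where 6447 of 21291 probe sets were lower, they lay between -0.725 and -0.45 and were called lower in S100a10 cells. Akap5, the anchor that holds kinase A beside TREK channels, was at 0.047 (SE 0.23) and did not pass. Copb1, a coat protein that holds TASK-1 in the cell, was at 0.089 (SE 0.16) as deposited and did not pass. After quantile normalization Copb1 was lower in S100a10 cells, at -0.605 (limma adjusted p = 0.0178), and after median centring at -0.679 (limma adjusted p = 0.0149). Across the partners the counts were 2 higher and 2 lower after quantile normalization, beside 18.4% of all genes in each direction. Those higher were Psd and the driver S100a10, and those lower were Map2 and Copb1.

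Signalling that closes TASK and TREK channels was measured by 9 kept of 19 listed receptors, G proteins and phospholipases of the Gq pathway. Of these 2 were higher and 1 lower in S100a10 cells, beside 44.4% and 4.5% of all genes, with a list median of 0.58 against 0.56 for all genes. After quantile normalization 1 was higher and 2 were lower, beside 18.4% of all genes in each direction. Plcb3 read 173.5, 197.4 and 151.8 in S100a10 arrays, against 27.6, 27.2 and 27.6 in Glt25d2 arrays, which puts it at least 3.47-fold higher in S100a10 cells in the deposited scaling. Plcb4, another phospholipase C beta, read 1509, 1470 and 1344 in S100a10 arrays, against 3106, 2890 and 3507 in Glt25d2 arrays, and fell by 1.13 (SE 0.12, limma adjusted p = 6.98e-04). These enzymes moved in opposite directions, and each kept its direction after quantile normalization, at 1.79 for Plcb3 and -1.52 for Plcb4. Gna11, a Gq-class alpha subunit, differed by 0.77 (SE 0.18, limma adjusted p = 0.0168), or 0.33 after quantile normalization, and did not pass without S100a10 replicate 1, at 0.76, or 3, at 0.74. The muscarinic receptor gene Chrm1 at 1.695 (SE 0.60) did not pass, with 67.2 in Glt25d2 replicate 3 beside 326.0 and 255.6 in the others. Without that array Chrm1 passed, at 0.994 (limma adjusted p = 0.00218), but not with quantile normalization as well, at 0.368. The receptor genes Trhr, at -1.405, and Grm5, at -0.651, were lower in S100a10 cells without that array, and neither passed with all arrays as deposited. Trhr was also lower after quantile normalization, at -1.619 (limma adjusted p = 0.0392).

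Of 10 listed genes of protein kinases A and C, which phosphorylate TREK channels, 9 were kept, 2 were higher and 0 lower in S100a10 cells (limma; 3 and 0 at an unadjusted p under 0.05), beside 44.4% and 4.5% of all genes. Their median was 0.29 against 0.56 for all genes. Prkar1a, a regulatory subunit, differed by 0.63 (SE 0.19, limma adjusted p = 0.0383) and did not pass in any fit with 1 array left out except that without Glt25d2 replicate 3, where it was 0.82; the other fits gave 0.48 to 0.68. Prkaca, a catalytic subunit, differed by 0.42 (SE 0.10, limma adjusted p = 0.0151), or 0.40 without Glt25d2 replicate 2, where it did not pass. After quantile normalization 0 were higher and 1 was lower (limma; 0 and 2 at an unadjusted p under 0.05), beside 18.4% of all genes in each direction. After median centring, where 6447 of 21291 probe sets were lower, 7 genes of this list were lower in S100a10 cells and 0 higher. Prkaca was among those lower, at -0.35 (limma adjusted p = 0.0321), while Prkar1a, at -0.14, did not pass.

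**Figure D4:**
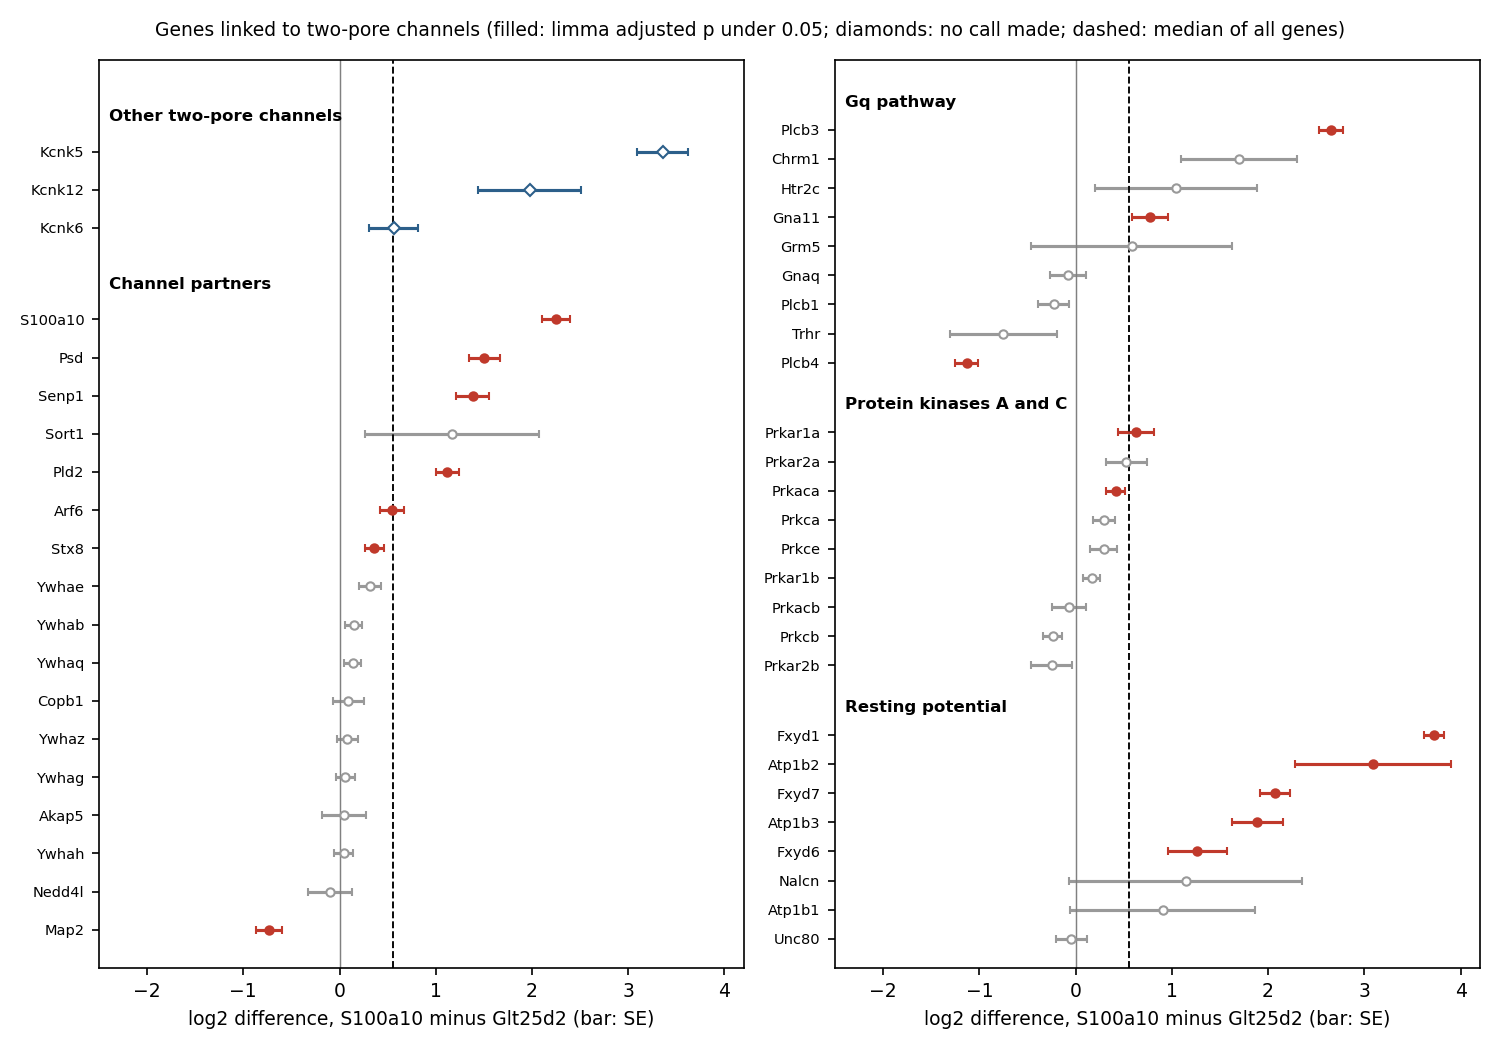
Log2 difference (S100a10 minus Glt25d2) with its SE for kept genes of the listed K2P channels, partner proteins, Gq pathway, kinases and resting-potential machinery. Filled points passed limma's adjusted threshold, diamonds mark K2P genes, which carry no call, and the dashed line is the median of all genes, 0.56. Subunits and regulators of the sodium pump reach 3.72, and most partner proteins lie between 0 and the dashed line.

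The sodium pump and the sodium leak channel oppose or restore what K2P channels pass. Of 13 listed genes 8 were kept, 5 were higher and 0 lower in S100a10 cells (limma; 5 and 0 at an unadjusted p under 0.05), beside 44.4% and 4.5% of all genes, with a median of 1.58 against 0.56 for all genes. The kept genes are beta subunits and regulators of the pump and genes of the leak channel, and the 5 called higher are all pump genes. Fxyd1, phospholemman, a pump regulator, read 570.7, 508.0 and 588.4 in S100a10 arrays, against 44.7, 40.7 and 40.7 in Glt25d2 arrays, which puts it at least 11.1-fold higher in S100a10 cells in the deposited scaling. Its difference was 3.72 as deposited, 2.93 after quantile normalization and 2.96 after median centring, and as folds the rescaled values lie below that bound. Fxyd7 differed by 2.08 (SE 0.16, limma adjusted p = 2.24e-04) and the beta subunit Atp1b3 by 1.89 (SE 0.26, limma adjusted p = 0.00223). The beta subunit Atp1b2 read 1924, 2727 and 2259 in S100a10 arrays, against 506.5, 535.3 and 71.0 in Glt25d2 arrays. Its difference of 3.09 (SE 0.81) was 2.13 without Glt25d2 replicate 3, and it did not pass without S100a10 replicate 1, at 3.21, 2, at 2.96, or 3, at 3.10. Fxyd6 at 1.27 (SE 0.31) did not pass without S100a10 replicate 2, at 1.19, or 3, at 1.18. Nor did Fxyd6 pass after quantile normalization, at 0.685, or after median centring, at 0.498. Atp1b2 did not pass after median centring, at 2.32. Fxyd1 and Atp1b2 were higher in the same arrays as the astrocyte and mural sums above, and the part of those cells was not tested.

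Glt25d2 replicate 3 was also low for the sodium leak channel and for the pump subunit Atp1b1. Nalcn read 1075, 1432 and 1635 in S100a10 arrays, against 1853, 1500 and 84.1 in Glt25d2 arrays. Atp1b1 read 17220, 21750 and 20860 in S100a10 arrays, against 23910, 22810 and 2177 in Glt25d2 arrays. Neither passed, and without that array Nalcn was at -0.29 and Atp1b1 at -0.23. With quantile normalization as well, Nalcn was lower in S100a10 cells, at -0.727 (limma adjusted p = 0.0326). So was Unc80, another leak channel gene, at -0.595 (limma adjusted p = 0.0167). Unc80 was at -0.044 as deposited and did not pass, and was lower after median centring, at -0.812 (limma adjusted p = 0.0075). After quantile normalization 4 genes of this list were higher and 0 lower (limma; 4 and 1 at an unadjusted p under 0.05), beside 18.4% of all genes in each direction.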

How the data were processed

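RNA from tagged ribosomes of 3 S100a10 and 3 Glt25d2 samples was measured on Affymetrix mouse arrays after a 2-cycle amplification from 15 ng, per the labels' protocols. The authors deposited linear-scale intensities made with GCRMA (version not stated), per the submitters' processing notes. The replicates are biological by their titles.

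The table holds 45101 probe sets, and 64 controls were removed. Of the remainder, 34945 have 1 gene symbol in the platform annotation, 932 have several and 9160 have none. RefSeq's gene table held 34741 of their Entrez identifiers and changed 0 symbols. Log2 intensities were used with no pseudocount. The filter kept probe sets whose mean reached 50 in either group, after the limit in the series text. limma 3.58.1 in R 4.3.3 (lmFit, eBayes, 2-sided, no block) fitted S100a10 minus Glt25d2 over 21291 probe sets, with Benjamini-Hochberg adjustment over all of them and a threshold of 0.05. The brightest kept probe set by mean log2 stands for a gene. Where a group had all arrays under 50, the other group's mean log2 was set against 50 to give a bound. Python 3.11.15 with pandas 2.3.3 made the tables, numpy 2.4.6 the arithmetic and matplotlib 3.10.9 the plots. The fit was tested on simulated data.

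The genes and lists were chosen with earlier results of these data known. The naming rule takes all Kcnk genes, at most 4 genes a list by size of difference among those that passed, and the 5 genes closest to Kcnk2; others were named after their values were seen.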

Additional observations from a re-analysis of the deposited data

How the results depend on the processing

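Over 16 alternatives the Kcnk2 difference lay between 2.65 and 3.50, and over the 15 that kept it Kcnk4 lay between 1.27 and 2.56. These ranges describe the arrays that the family was picked from and are no test. The filter on both group means leaves Kcnk4, Kcnk5, Kcnk6 and Kcnk12 out. The sign of Kcnk3 turned to -0.072 with quantile normalization without Glt25d2 replicate 3. The Kcnk1 probe set 1448690_at turned to -0.13 after median centring, -0.086 without Glt25d2 replicate 3 and -0.46 with quantile normalization as well, where 1455896_a_at was at -0.36. With 1 array left out, 1448690_at lay between -0.086 and 1.046. Kcnk6 turned to -0.20 after median centring, -0.34 after quantile normalization and -0.29 with that array left out as well. The cause was not tested. The Kcnk5 difference was 0.54 with values under 50 set to 50 and Kcnk12 0.43.

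Of all probe sets, 9405 were called higher and 934 lower in S100a10. The counts were 3574 and 4128 after quantile normalization, 4771 and 5119 with Glt25d2 replicate 3 left out as well, 3363 and 6447 after median centring, 19640 and 5131 without a filter, and, over genes, 5285 and 542 with 1 probe set per gene and 5699 and 488 with their mean. With 1 array left out, 7354 to 11720 were higher and 610 to 1276 lower.

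Over the alternatives the channel partners gave 2 to 8 higher and 0 to 10 lower, the Gq pathway 1 to 3 and 1 to 3, the kinases 0 to 5 and 0 to 7, and the sodium pump and leak list 3 to 5 and 0 to 2.

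Deviations of same-numbered arrays from their group means had r = -0.452, 0.224 and -0.238 for replicates 1, 2 and 3. Within a group of 3 arrays such deviations depend on each other, so these values cannot show or exclude pairing. The numbers were not used as pairs. With the replicate number as a block, 558 probe sets were lower and the Kcnk2, Kcnk4 and Kcnk3 differences were 3.42, 2.38 and 0.99. With 3 arrays a group and signal under 50 in Glt25d2, the size of the Kcnk4, Kcnk5 and Kcnk12 differences is limited to a bound in the deposited scaling.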
